A study of Homo sapiens with 6 samples.

Results

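Fibronectin and the matricellular proteins form a group of 10 genes chosen by symbol: FN1, TNC, THBS1, THBS2, SPP1, POSTN, SPARC, TGFBI, VCAN and FBN1. They were found by gene ID among the 30727 genes of the deposited files, and all 10 were listed. The RNA, poly(A)-selected, came from PANC-1, an established human line derived from a pancreatic duct carcinoma. The knockdown group was treated with siRNA against SUV420H2, now named KMT5C, a methyltransferase that acts on lysine 20 of histone H4. The other group carries the label control, and each group had 3 libraries. The labels do not say what the control received, how long the cells were treated, or whether the libraries came from separate cultures. The p-values therefore measure only the spread between these libraries, which may be technical. Replicate numbers follow accession order, only name a library and pair none. The extraction text in the labels speaks of brain cell types, neurons, microglia and astrocytes, and not of PANC-1, so it may not describe these libraries, and markers of those cells were counted.

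Fibronectin is a large secreted glycoprotein that cells assemble into fibrils by binding it with integrins, above all integrin α5β1. Matricellular proteins, such as the thrombospondins, tenascins, osteopontin, periostin and SPARC, lie in the matrix but mainly change how cells attach to it and respond to it. Versican and fibrillin-1 build the matrix itself, versican by binding hyaluronan and fibrillin-1 by forming microfibrils. In pancreatic tumours much of this matrix is made by stromal fibroblasts, and here the carcinoma cell line was sequenced without them.

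The control libraries held 20863594 to 25931995 reads and the knockdown libraries 27007534 to 38022772. The targeted gene KMT5C fell to 60.6% of the control level (log2 change −0.72, SE 0.163, adjusted p in edgeR = 0.00227), with 7.23 to 12.7 CPM (counts scaled to library size by TMM) in the controls and 5.86 to 6.11 CPM in the knockdown. Control replicate 3 stood apart from the other controls, with a chi-square per degree of freedom of 11.3 and 13.6 against 1.55 between those 2.

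The 10 genes went in both directions, and their levels lay far apart. TGFBI, SPARC and THBS1 made up nearly all of the group's RNA per length, and of these SPARC rose while TGFBI and THBS1 fell. FN1 and VCAN rose the most in fold terms, but from a very low level: all 3 controls together held 50 reads of FN1 and 5 of VCAN. Of the 8 genes with enough reads to be tested, 4 rose (FN1, SPARC, VCAN and FBN1), 3 fell (TNC, THBS1 and TGFBI) and THBS2 did not pass. A gene was called where the adjusted p of edgeR's quasi-likelihood test, taken over all genes tested, was under 0.05. Over all 15190 genes tested 67.3% were called, 33.1% higher and 34.2% lower in the knockdown, so a call in itself does not set these genes apart. SPP1 and POSTN had too few reads to be tested.

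The stretches just before the transcription starts of 4 genes are shown because they belong to the transcripts with the largest rises, FN1 and VCAN, and to the most abundant transcript that fell, TGFBI, with THBS1, which fell the most. Each is the 250 bases before the RefSeq start in GRCh38.p14, written 5′ to 3′ on the gene's strand: chr2:215436069-215436318 (minus strand) for FN1, chr5:83471494-83471743 (plus strand) for VCAN, chr5:136028738-136028987 (plus strand) for TGFBI and chr15:39580829-39581078 (plus strand) for THBS1. Capitals mark matches on either strand to GGGCGG, the core of a GC box, and to TGACGTCA, the palindromic core of a cAMP response element; TATAAA and CACCTG, the E-box core bound by ZEB1, were also searched and have no match in these 4.
FN1: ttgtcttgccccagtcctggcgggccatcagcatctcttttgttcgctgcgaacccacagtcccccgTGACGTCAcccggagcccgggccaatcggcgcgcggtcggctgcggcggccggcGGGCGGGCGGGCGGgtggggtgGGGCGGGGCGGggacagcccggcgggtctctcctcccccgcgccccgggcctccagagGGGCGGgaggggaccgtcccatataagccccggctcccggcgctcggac
VCAN: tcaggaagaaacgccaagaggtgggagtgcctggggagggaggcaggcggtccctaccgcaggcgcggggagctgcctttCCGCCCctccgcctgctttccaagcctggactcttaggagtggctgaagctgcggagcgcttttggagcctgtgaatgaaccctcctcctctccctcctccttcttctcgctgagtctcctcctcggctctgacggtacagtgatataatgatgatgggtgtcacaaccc
TGFBI: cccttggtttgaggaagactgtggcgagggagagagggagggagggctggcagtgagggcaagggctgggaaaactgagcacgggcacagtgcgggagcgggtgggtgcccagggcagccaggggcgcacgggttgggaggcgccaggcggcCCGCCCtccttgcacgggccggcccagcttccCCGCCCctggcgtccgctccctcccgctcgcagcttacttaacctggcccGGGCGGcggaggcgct
THBS1: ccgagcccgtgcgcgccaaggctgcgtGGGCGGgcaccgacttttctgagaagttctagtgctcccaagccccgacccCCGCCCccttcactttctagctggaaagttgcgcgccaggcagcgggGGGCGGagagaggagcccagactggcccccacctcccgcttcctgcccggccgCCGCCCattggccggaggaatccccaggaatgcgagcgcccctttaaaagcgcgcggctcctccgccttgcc
The palindrome TGACGTCA stood, among the 10 genes, before FN1 only, 183 bases before the start, and in 1.65% of the 35116 promoters of the same length. GGGCGG had 6 matches before FN1, some of them overlapping, 4 before THBS1, 3 before TGFBI and 1 before VCAN, and 42.6% of all promoters held at least 1. Among all 10 genes, TATAAA was found before THBS2 and POSTN (10.7% of all promoters) and CACCTG before SPP1 (17.5%). TGANTCA, which covers the AP-1 core, was found before POSTN (6.57%), and CAGACA, a sequence bound by SMAD proteins, before TNC, THBS2 and SPP1 (13.6%). The G and C content was 76.4% before FN1 and 72.8% before TGFBI, against a median of 58.0% over all promoters and 36.4% before POSTN. The GC box core was thus present before genes that rose (FN1, VCAN) and genes that fell (TNC, THBS1, TGFBI).

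Levels of different genes were compared in RPKM, reads scaled to gene length and library size, with the authors' size-factor adjustment. In the controls the order by mean RPKM was TGFBI (203), SPARC (12.3), THBS1 (10.8), TNC (0.581), SPP1 (0.122), FBN1 (0.103), THBS2 (0.102), FN1 (0.0725), POSTN (0.00754) and VCAN (0.00555). Neighbours from SPP1 to FN1, and POSTN and VCAN, overlapped in their library values. In the knockdown the order was TGFBI (155), SPARC (19.7), THBS1 (5.13), FN1 (0.394), TNC (0.321), SPP1 (0.173), FBN1 (0.161), THBS2 (0.0809), VCAN (0.0776) and POSTN (0.0423). There the overlapping neighbours were SPP1 with FBN1, THBS2 with VCAN and VCAN with POSTN. FN1 moved from rank 8 to rank 4 of the 10, yet in the knockdown its RPKM still exceeded that of only 9.95% of the genes tested.

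**Figure D1:**
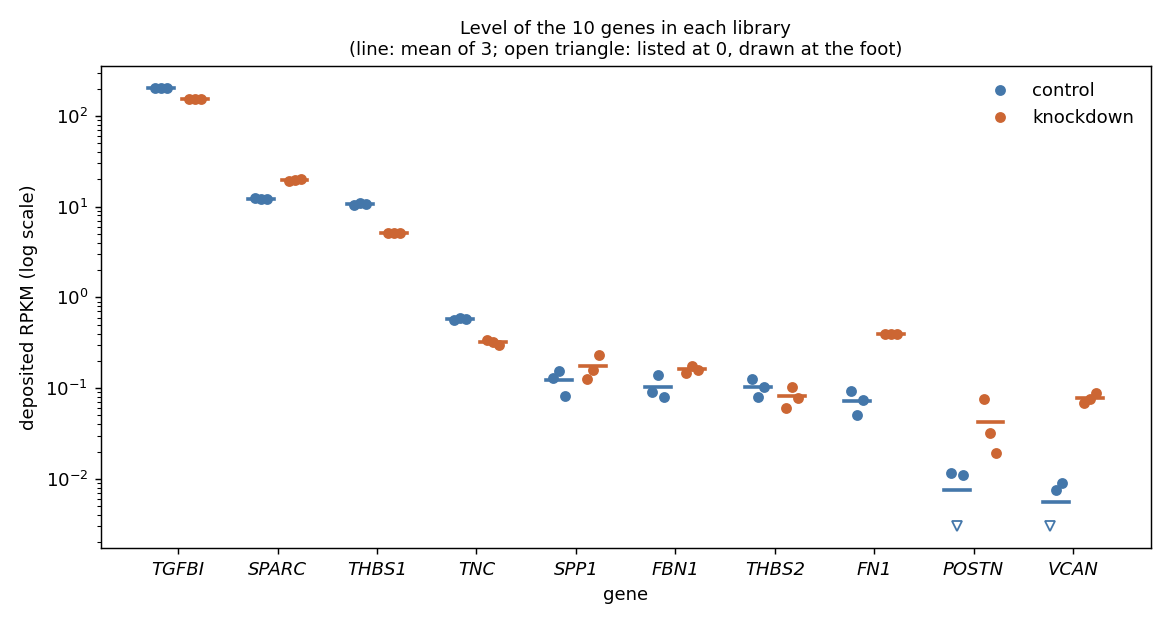
Deposited RPKM (log axis) of the 10 genes in each of the 3 control and 3 knockdown libraries; horizontal lines are means of 3 and open triangles are libraries in which a gene was listed at 0, drawn at the foot of the axis. TGFBI sits between 155 and 205 RPKM, SPARC and THBS1 between 5.10 and 20.1, and the other 7 genes at no more than 0.597.

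Summed over the 10 genes, the RPKM was 227 ± 2.16 (SD, n = 3) in the controls and 181 ± 0.506 in the knockdown. TGFBI alone held 89.4% ± 0.142 of that sum in the controls and 85.6% ± 0.176 in the knockdown. Without TGFBI the sum of the other 9 genes was 24.1 ± 0.132 RPKM in the controls and 26.1 ± 0.361 in the knockdown. SPARC made up 5.42% of the sum in the controls and 10.9% in the knockdown, THBS1 4.75% and 2.83%, and FN1 went from 0.0319% to 0.218%. TGFBI thus made up most of the summed level in both groups.

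FN1 encodes fibronectin (gene ID 2335; GRCh38.p14 chromosome 2, 215360865 to 215436068). It had 22, 10 and 18 reads in the controls and 142, 101 and 110 in the knockdown libraries. Scaled to library size this was 0.879, 0.482 and 0.705 CPM against 3.71, 3.72 and 3.66 CPM. Every knockdown library lay above every control. The knockdown values lay closer together than counting error at these read numbers would give, so their closeness does not measure precision. FN1 rose by 2.39 on the log2 scale (SE 0.175, 5.25-fold, adjusted p in edgeR = 4.15e-07), with means of 0.689 ± 0.199 CPM in the controls and 3.70 ± 0.0307 CPM in the knockdown (SD, n = 3 each). The depth-corrected ratio of the summed reads was 5.27, with an exact 95% interval of 3.91 to 7.24 that covers counting error only. In the controls FN1 stood at rank 14896 of the 15190 tested genes by mean RPKM. The counts are per gene, so the spliced forms of fibronectin with and without its extra domains could not be told apart.

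TNC encodes tenascin-C, a matrix glycoprotein that interferes with the attachment of cells to fibronectin (chromosome 9, 115019575 to 115118157). It had 5.19, 5.45 and 5.33 CPM in the controls, from 113 to 136 reads, and 3.08, 2.95 and 2.70 CPM in the knockdown, from 80 to 118 reads. All knockdown libraries lay below all controls. On the log2 scale TNC fell by 0.87 (SE 0.104, 54.9% of the control level, adjusted p in edgeR = 2.21e-05).

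The ratio of FN1 to TNC within a library needs no scaling between libraries. It restates the opposite changes of these genes, which were known when the pair was chosen, and is given as a description. The permutation test run on it counts among the 3 pairs adjusted for below and adds no weight. The log2 ratio of FN1 to TNC reads was −2.54, −3.43 and −2.88 in the controls and 0.27, 0.33 and 0.44 in the knockdown. Per length, FN1 stood at 0.163, 0.0854 and 0.128 times the RPKM of TNC in the controls and at 1.16, 1.22 and 1.31 times in the knockdown. TNC was thus the higher of the pair in every control library and FN1 in every knockdown library. The difference of the mean log2 ratios was 3.30.

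Both thrombospondins bind several cell surface receptors, among them CD47 and CD36, and restrain the growth of blood vessels. THBS1, thrombospondin-1 (chromosome 15, 39581079 to 39599466), had 62.9, 65.4 and 65.1 CPM in the controls and 30.1, 30.6 and 30.2 CPM in the knockdown, from at least 832 reads in each library. The knockdown libraries lay close together and far below the controls. On the log2 scale it fell by 1.09 (SE 0.0491, 47.0% of the control level, adjusted p in edgeR = 1.08e-08). Of its annotated exonic bases, 7.58% are shared with other genes, among them FSIP1, and no source says that counting used strand; FSIP1 had 84 to 114 reads in the controls and 45 to 55 in the knockdown.

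THBS2, thrombospondin-2 (chromosome 6, 169215785 to 169253846), had 19, 10 and 16 reads in the controls and 14, 17 and 14 in the knockdown. In CPM these were 0.759, 0.482 and 0.627 against 0.366, 0.626 and 0.466, and the groups overlapped. The change on the log2 scale was −0.41 (SE 0.292, adjusted p in edgeR = 0.232), and the count ratio of 0.747 had an exact 95% interval of 0.483 to 1.15. A fall to 47.0% of the control level, the estimate for THBS1, lay just outside this interval, which covers counting error only. The same kind of interval for THBS1, 0.449 to 0.493, overlapped it. Overlap of 2 intervals is no test of their difference, so no conclusion is drawn from it. The log2 ratio of THBS1 to THBS2 reads was 6.34, 7.01 and 6.65 in the controls and 6.32, 5.57 and 5.97 in the knockdown. Its mean was lower in the knockdown by 0.72, with control replicate 1 and knockdown replicate 1 nearly level (exact two-sided permutation p = 0.1, adjusted over 3 pairs 0.1). That is the smallest p that 3 against 3 libraries can give.

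**Figure D2:**
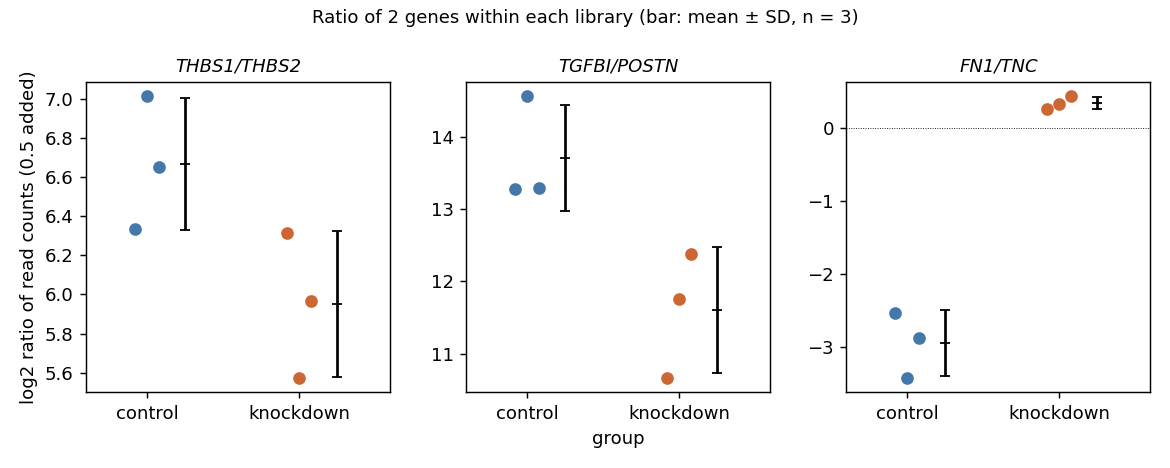
Log2 ratio of the read counts of 2 genes (0.5 added to each count) in each library, for THBS1 to THBS2, TGFBI to POSTN and FN1 to TNC; bars are means ± SD of 3 libraries, and the vertical axes differ between panels. Only the FN1 to TNC panel crosses 0, with controls from −3.43 to −2.54 and knockdown libraries from 0.27 to 0.44.

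TGFBI and POSTN encode the related secreted proteins TGFBIp and periostin, built of fasciclin domains, and both genes are known to respond to TGF-beta. TGFBI (chromosome 5, 136028988 to 136063818) was the most abundant of the group, at rank 223 of the tested genes by RPKM in the controls. It had 592, 580 and 590 CPM in the controls and 443, 445 and 443 CPM in the knockdown, from at least 12044 reads in each library. The groups stood well apart with little spread within either. TGFBI fell by 0.41 on the log2 scale (SE 0.0366, 75.5% of the control level, adjusted p in edgeR = 2.30e-06). This fall was precise but small, and it did not pass a test against a change of 1.5-fold (adjusted p = 1; range over all alternatives 1.83e-17 to 1).

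POSTN (chromosome 13, 37562585 to 37598768) had 1, 0 and 1 reads in the controls and 10, 3 and 2 in the knockdown. The knockdown libraries were all higher once scaled, at 0.261, 0.110 and 0.0666 CPM against 0.0400, 0 and 0.0392, but 10 of their 15 reads came from knockdown replicate 1. The count ratio of 5.60 had an exact 95% interval of 1.30 to 50.5. With no filter on low counts its log2 value was 2.30 (SE 0.968, adjusted p in edgeR = 0.0423). The log2 ratio of TGFBI to POSTN reads was lower in the knockdown by 2.11 (exact two-sided permutation p = 0.1, adjusted over 3 pairs 0.1), and it rests on these few reads.

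SPP1 encodes osteopontin, a secreted phosphoprotein bound by integrins and CD44 (chromosome 4, 87975714 to 87983411). It had 6, 6 and 4 reads in the controls and 9, 8 and 13 in the knockdown, or 0.240, 0.289 and 0.157 CPM against 0.235, 0.295 and 0.433 CPM. The groups overlapped, and the count ratio of 1.40 had an exact 95% interval of 0.739 to 2.75. With no filter the edgeR adjusted p was 0.454. A difference was not detectable at this depth.

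SPARC, also called osteonectin, binds collagen and loosens the attachment of cells to matrix (chromosome 5, 151661096 to 151686915). It had 45.8, 45.0 and 45.9 CPM in the controls and 71.2, 71.6 and 73.4 CPM in the knockdown, from at least 934 reads in each library. The groups did not overlap. SPARC rose by 0.66 on the log2 scale (SE 0.0455, 1.58-fold, adjusted p in edgeR = 2.59e-07), which did not pass a test against a change of 1.5-fold (adjusted p = 0.0848; range over all alternatives 1.15e-24 to 0.0848). The noncoding RNA CLMAT3 shares 7.89% of SPARC's exonic bases, and it had 25 to 33 reads in the controls and 64 to 73 in the knockdown.

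VCAN encodes versican, the large chondroitin sulfate proteoglycan that binds hyaluronan (chromosome 5, 83471744 to 83582302). It had 0, 2 and 3 reads in the controls and 33, 26 and 34 in the knockdown. These are 0, 0.0964 and 0.118 CPM against 0.862, 0.957 and 1.13 CPM. VCAN passed the filter on low counts, 0.378 CPM in at least 3 libraries, only through the knockdown libraries, so its call adds no weight of its own. The change on the log2 scale was 3.71 (SE 0.461, adjusted p in edgeR = 2.92e-05), and the count ratio of 13.9 had an exact 95% interval of 5.74 to 43.8. In RPKM it remained, at 0.0776 ± 0.0109 (SD, n = 3), below FN1 and overlapped THBS2 in its library values. Without control replicate 3 the log2 value was 4.34. Of VCAN's annotated exonic bases, 3.05% are shared with VCAN-AS1, which was not among the genes counted.

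FBN1 encodes fibrillin-1, the main protein of microfibrils (chromosome 15, 48408313 to 48645709). It had 27, 35 and 25 reads in the controls and 68, 57 and 57 in the knockdown. In CPM these were 1.08, 1.69 and 0.980 against 1.78, 2.10 and 1.90, and control replicate 2 came close to the lowest knockdown library. FBN1 rose by 0.64 on the log2 scale (SE 0.202, 1.56-fold, adjusted p in edgeR = 0.0155). The call was lost in DESeq2 (adjusted p = 0.0521), without control replicate 1 (0.0599), without knockdown replicate 2 (0.0522) and against a change of 1.5-fold (0.615; range over all alternatives 0.00149 to 0.615).

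**Figure D3:**
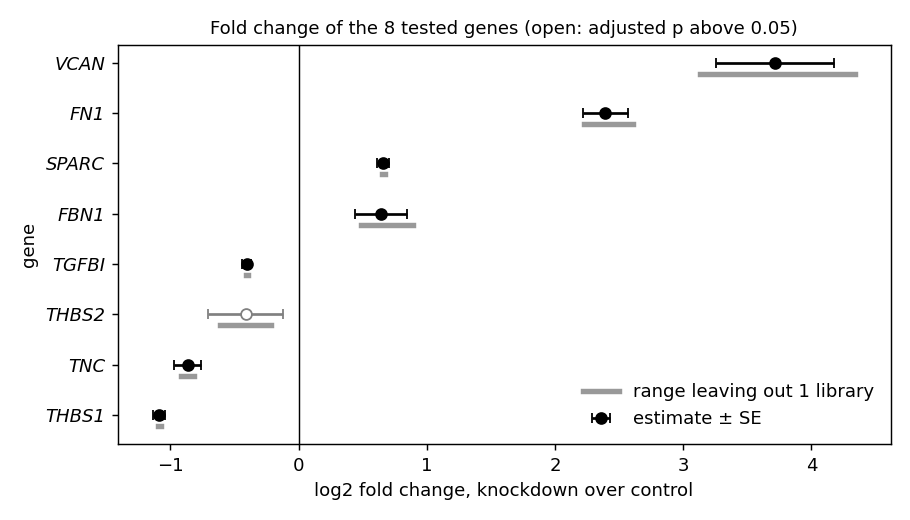
Log2 fold change, knockdown over control, of the 8 tested genes with its SE; grey bars give the range when each library was left out in turn, and the open point did not pass. VCAN and FN1 lie highest at 3.71 and 2.39, THBS1 lowest at −1.09, and no range crosses 0.

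The median log2 fold change over the 8 tested genes was 0.12, against −0.01 over all genes tested. Their median absolute change was 0.76, against 0.35 over all genes tested. Of the 8, 7 had groups that did not overlap, and 71.3% of all genes tested had such groups. Against a change of 1.5-fold, FN1, VCAN, THBS1 and TNC passed, where 19.7% of all genes tested did. These figures are descriptions and no test of the group. They include VCAN, which passed the filter on low counts only through the knockdown libraries. The genes were also chosen with earlier results of these data known.

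Without control replicate 3 the log2 fold changes were 2.39 for FN1, −0.87 for TNC, −1.08 for THBS1, −0.41 for TGFBI, 0.66 for SPARC and 0.49 for FBN1, and these and VCAN were still called. All 7 duct epithelium markers were tested, of which 5 rose (KRT7, KRT8, KRT18, EPCAM and CDH1) and 2 fell (KRT19 and SOX9). Their summed level went from 2648 to 3209 CPM in the controls to 6233 to 6448 CPM in the knockdown. Most of that sum was KRT8, which rose from 893 to 2590 CPM, and KRT18, from 791 to 2343 CPM. KRT19 fell from 915 to 734 CPM (adjusted p in edgeR = 0.00472) and SOX9 from 195 to 177 CPM (adjusted p = 0.0298). CDH1, E-cadherin of epithelial junctions, rose from 34.4 ± 0.794 to 378 ± 5.00 CPM (SD, n = 3 each; 11.0-fold, adjusted p in edgeR = 1.80e-12), and EPCAM, an epithelial adhesion protein, from 13.8 ± 0.926 to 70.7 ± 1.79 CPM (5.10-fold, adjusted p = 3.04e-10). Fibroblasts and endothelium were covered by 14 markers, of which 4 were tested and 3 rose (PDGFRB, ESAM and COL14A1). The fourth, THY1, was the highest of the 14 by CPM in the controls and did not pass. THY1 had 7.02 CPM in the controls and 7.88 CPM in the knockdown (adjusted p in edgeR = 0.110). The summed level of the 14 markers was 9.99 to 10.7 CPM in the controls and 20.2 to 21.0 CPM in the knockdown, with PDGFRB at 3.85-fold and ESAM at 4.88-fold of the control. The other 10 had too few reads to be tested. PDGFRA, DCN and PDPN were at 0 reads in all controls and had 20, 1 and 1 reads in the knockdown, FAP had 4 and 0, CLDN5 5 and 2, KDR 9 and 9, LUM 2 and 7, PECAM1 1 and 2, CDH5 3 and 12 and VWF 7 and 13. The part of these markers in the rises of FN1, VCAN and FBN1 was not tested, and in bulk RNA a change in the number of cells of a type cannot be told apart from a change in RNA per cell. Of 9 neuron markers 6 were tested, of which 2 rose, 3 fell and 1 did not pass. The neuron markers summed to 231 to 273 CPM in the controls and 129 to 137 CPM in the knockdown. TUBB3, a neuronal tubulin, fell from 187 to 90.8 CPM (log2 change −1.05, adjusted p in edgeR = 4.03e-07). SYT1, a synaptic vesicle protein, fell from 8.07 to 1.78 CPM (−2.17, adjusted p = 2.86e-08). SNAP25, 1 of the 2 that rose, went from 0.384 to 0.735 CPM (adjusted p = 0.0246). Microglia and leukocyte markers summed to 92.9 to 104 and 127 to 134 CPM, nearly all of it from CD68. Astrocyte markers summed to 2.46 to 2.90 and 2.53 to 3.13 CPM, and AQP4 was at 0 in all libraries.

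The receptors that bind these proteins also split, with 6 of 14 tested higher, 7 lower and SDC3 not passing. Of all genes tested 33.1% were higher and 34.2% lower, so a split here or in the lists that follow does not set them apart. ITGA5, the α chain of the main fibronectin receptor, rose from 308 ± 19.4 to 726 ± 2.19 CPM (SD, n = 3 each; log2 change 1.23, SE 0.0486, adjusted p in edgeR = 4.56e-09). ITGB1, its β chain, fell by 0.42 on the log2 scale. ITGA3, a laminin receptor chain, fell from 1453 to 511 CPM (−1.51, SE 0.0514). ITGAV and ITGB5, which pair into a receptor for several proteins with an RGD sequence, rose by 0.31 and 0.79. CD44, which binds hyaluronan and osteopontin, fell from 2278 ± 98.6 to 1162 ± 16.8 CPM (log2 fold change −0.97), and CD47, a thrombospondin receptor, was at −0.13 (adjusted p in edgeR = 0.0466). CD36 and the α4, α8, α9 and β6 integrin chains had too few reads to be tested.

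Among 23 other matricellular genes, 14 were tested, of which 8 rose, 4 fell and STAB1 and STAB2 did not pass. The median was 0.46. COMP and SPOCK3 here, FBLN2, HAPLN4 and COL14A1 in the lists described with them, passed the filter on low counts only through the knockdown libraries, as VCAN did. In these genes every control lay below 0.378 CPM. FBN3, ADAMTS4 and SNAP25 reached it in some controls but too few, so they also passed only with the knockdown libraries. The calls of all these genes add no weight of their own, and the counts and medians are descriptions. THBS3, another thrombospondin, fell from 26.9 ± 1.01 to 8.50 ± 0.192 CPM (log2 change −1.66, SE 0.0680, adjusted p in edgeR = 5.35e-09). SPOCK1, a testican related to SPARC, fell from 24.8 to 8.83 CPM (−1.49, SE 0.0847), whereas SPOCK2 (0.85) and SPOCK3 (4.53, from 0.114 to 2.72 CPM) rose. CCN4 (−2.04, from 0.638 to 0.150 CPM) and CCN6 (−0.98) also fell. CCN4 passed the filter on low counts only through the control libraries, so its call adds no weight of its own. CCN1 and CCN2, targets of YAP signalling that bind integrins, rose by 0.54 and 0.38. The cartilage protein COMP, which belongs to the thrombospondins, rose by 2.21 from 0.164 to 0.776 CPM.

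The microfibril and elastic fibre genes showed 8 higher, 4 lower and 4 not passing of 16 tested, with a median of 0.33. EFEMP1, fibulin-3, rose from 47.1 to 121 CPM (log2 change 1.37, SE 0.0459, adjusted p in edgeR = 1.58e-09). LTBP2, which binds fibrillin, fell from 288 to 127 CPM (−1.18, SE 0.0469). LTBP4 (−1.17) and the crosslinking enzymes LOX (−0.46) and LOXL1 (−1.87) were the others that fell. FBN3, a fibrillin of embryonic tissue, rose by 1.97, from 0.426 to 1.72 CPM, and FBLN2 by 3.08, from 0.105 to 0.962 CPM.

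Of 13 tested genes of versican, hyaluronan and proteoglycan metabolism, 8 rose and 5 fell, with a median of 0.29. BCAN, brevican, a relative of versican, rose from 0.712 ± 0.135 to 4.16 ± 0.413 CPM (log2 change 2.53, SE 0.171, adjusted p in edgeR = 2.34e-07). ADAMTS1 and ADAMTS4, proteases that cut versican, rose by 1.25 (from 1.40 to 3.33 CPM) and 3.76 (from 0.234 to 3.09 CPM). ADAMTS4 had only 16 reads in all controls together and passed the filter on low counts only with the knockdown libraries. The far more abundant ADAMTS15 in the same list fell by 0.25, from 143 to 120 CPM. HSPG2, the basement membrane proteoglycan perlecan, fell from 562 ± 57.5 to 281 ± 19.9 CPM, or 50.1% of the control level (SE of the log2 change 0.0729). The hyaluronan synthases HAS2 (0.25) and HAS3 (−0.34) went opposite ways by small amounts. Among 14 TGF-beta signal genes, 5 rose, 5 fell and 4 did not pass, with a median of 0.09. TGFBR3 rose by 2.29 (SE 0.0938), TGFBR2 fell by 1.03 (SE 0.0434), and the ligands TGFB1 (0.15), TGFB2 (0.12) and TGFB3 (0.05) did not pass.

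**Figure D4:**
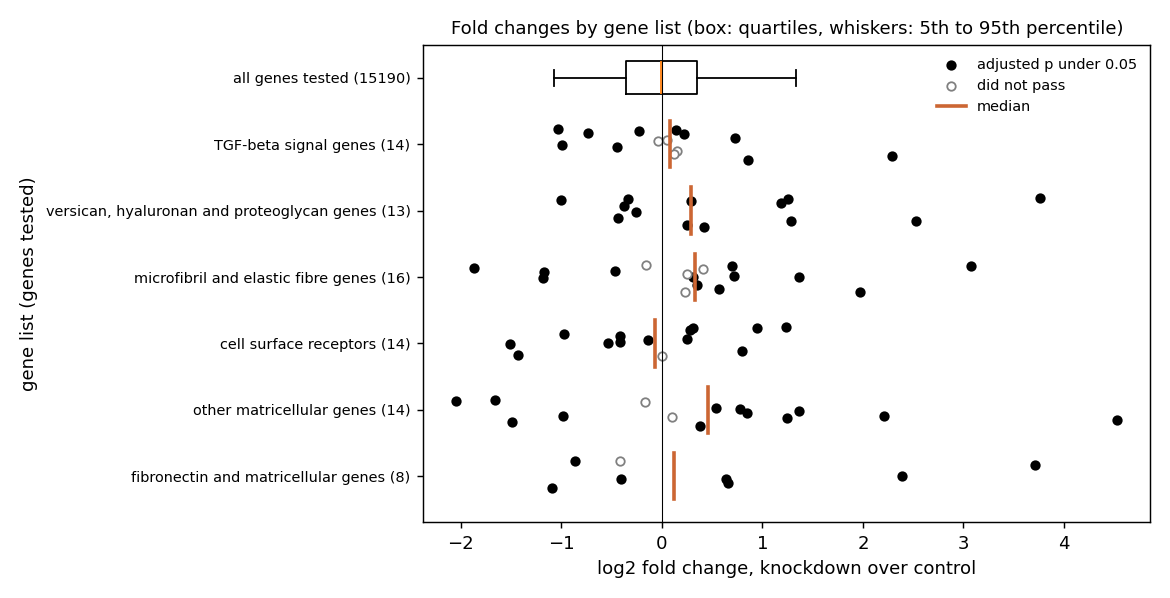
Log2 fold change, knockdown over control, of each tested gene in 6 lists (points; filled where the adjusted p is under 0.05; orange bar, median) beside a box of all 15190 genes tested. Each list holds genes on both sides of 0, and the medians run from −0.06 for the receptors to 0.46 for the other matricellular genes.

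The 3 tested protein-coding genes whose centred log2 CPM lay nearest to FN1, by Euclidean distance over the 6 libraries, were KIF5C (distance 0.327), TESK2 (0.357) and IL1RAP (0.373), out of 11544 compared. For TNC they were DRC9 (0.0691), TK2 (0.0747) and UBE3B (0.0815). The 6 libraries fall into only 2 groups, and no test was made of these distances.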

How the data were processed

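RNA-seq of 3 control and 3 knockdown libraries of PANC-1 was analysed, grouped by the siRNA label. Reads were aligned with GSNAP to GRCh38, per the submitters' processing notes; its version, the annotation release and the strand setting: not given in the sources used here. Per the file headers, the deposited values are the count of uniquely aligned reads per gene model and an RPKM that the authors adjusted by size factors. The ratio of count to RPKM was a gene constant times a library constant, so tests used the counts and RPKM served only to compare levels between genes.

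Symbols, gene coordinates and promoter sequences came from RefSeq (GRCh38.p14), where 27814 of 30727 IDs and all 10 genes matched, and shared exonic bases from GENCODE 29. Unmatched IDs, kept in the tests, took 0.323% to 0.338% of reads. Counts were filtered with filterByExpr (minimum count 10, minimum total 15), scaled by TMM and tested with edgeR 4.0.16 in R 4.3.3 (glmQLFit and glmQLFTest, two-sided, Benjamini-Hochberg over 15190 genes, threshold 0.05). The fit was also run on simulated counts with few changed genes and the same spread for all genes. That setting is unlike these data, so it does not show the error rate here. The FBN1 promoter window starts from a RefSeq transcript that begins inside the gene's outer limit.

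No pair of replicates held identical counts, and all differed by more than sampling noise. The genes and lists were chosen with earlier results of these data known. Named were the 10 genes, KMT5C, in each other list the 2 genes of smallest p, and the 3 nearest patterns of FN1 and TNC; other list genes were named after their values were seen. Alternatives were DESeq2 1.42.0 size factors and Wald test, library size alone, upper-quartile scaling, 2 other filters, limma-voom (limma 3.58.1), glmTreat against 1.5-fold and leaving out each library.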

Additional observations from a re-analysis of the deposited data

How the results depend on the processing

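Of 356 recomputed values, 334 kept their direction and side of the threshold (counts stayed within 1.5 times), 15 counts moved, 7 calls were lost and none reversed. The pair ratios among the 334 could not cross the threshold, since 3 against 3 libraries give no permutation p under 0.1. FN1, VCAN, THBS1 and TNC kept their calls in every alternative that tested them; VCAN, FBN1 and THBS2 were not tested when a mean log2 CPM of 1 or more was required. Against a 1.5-fold change, 2998 genes passed (1606 higher, 1392 lower), 2 of the 10 genes were called higher, and the log2 values of FBN1 (0.64), SPARC (0.66), TGFBI (−0.41) and KMT5C (−0.72, adjusted p = 0.305) no longer passed. There the counts were 2 higher and 3 lower for TGF-beta signal genes, 3 and 3 for receptors, 4 and 1 for versican, hyaluronan and proteoglycan genes, and 4 higher for microfibril genes. With that filter, 2 of the 10 genes were called higher, 5 microfibril genes were higher, and 5 other matricellular genes were higher and 2 lower, since fewer genes were tested. FBN1 stood at 0.65 in DESeq2. Leaving out 1 library gave FBN1 0.49 to 0.89 on the log2 scale, KMT5C −0.88 to −0.50, FN1 2.22 to 2.61 and VCAN 3.13 to 4.34, 3 to 4 of the 10 genes higher, and 9184 to 11277 genes called. The count of TGF-beta signal genes called higher ran from 4 to 7. No paired analysis was possible because the labels give no replicate numbers; those used here follow accession order. The ratio of TGFBI to POSTN has no value in RPKM, as POSTN is listed at 0 in 1 control. For THBS2, SPP1 and POSTN the depth, at most 19 reads in a library, limits what can be seen.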
